A study of Homo sapiens with 4 samples.

Results

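The genes of the microRNA processing machinery were followed across 4 exon arrays: DROSHA and DGCR8 of the nuclear Microprocessor, the exporter XPO5, the cytoplasmic RNase DICER1 with its partners TARBP2 and PRKRA, the Argonautes AGO1, AGO2 and AGO3, and the uridylyltransferase TUT4. They were selected by symbol, as transcript clusters that the platform annotation gives to 1 gene alone. All 10 were found, among 14232 genes in the table, each with 1 transcript cluster. Total RNA came from cells labelled HepG2, the name of a hepatocellular carcinoma line, and from K562, a chronic myeloid leukaemia line; the first label is set against marker genes below. Each line carried a stably transfected plasmid with siRNA against ADAR1 (ADARkd) or with scrambled siRNA (SCR), and the siRNA had been chosen among several for its effect on ADAR. The sources used here do not say whether the transfected cells were clones or pools. With 1 array for each line and arm, differences within a line carry no replicate check, and precision is limited by having 4 arrays in all. In such bulk RNA, fewer cells with a transcript and less of it per cell cannot be told apart. The study asked how ADAR acts on splicing across the genome; the values here are its gene-level intensities, given as log2 unless stated.

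MicroRNAs are cut from long primary transcripts in the nucleus by DROSHA, which needs its RNA-binding partner DGCR8. The hairpin that results is carried to the cytoplasm by XPO5 and cut again by DICER1 into a short duplex, of which 1 strand is loaded into an Argonaute protein and guides it to target mRNAs. ADAR acts on the same kind of RNA, double-stranded stretches, and is known to edit some microRNA precursors. Its product ADAR1 is also known to bind DICER1. The arrays measure the transcripts of these proteins and give no level of any mature microRNA.

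ADAR itself stood at 8.96 in SCR and 7.27 in ADARkd on the arrays labelled HepG2, and at 7.99 and 6.78 in K562, so that 31.0% and 43.2% of the SCR intensity were left. The identity of the first line is limited by its markers. Of 21 hepatocyte markers measured, 2 reached the filter level there, CPS1 at 10.89 and 10.56 and FOXA1 at 6.13 and 6.23, and 2 did in K562. Albumin (ALB) stood at 3.04 and 2.97. The summed intensity of the hepatocyte markers was 2178 and 1796 against 332 and 355 in K562. On the arrays labelled HepG2 CPS1 alone made up most of that sum. Without CPS1 the sum there was not above that of K562. Of 12 fibroblast and stromal markers 8 reached the filter level, against 1 in K562, and their summed intensity was 2295 and 2275 against 536 and 501. Between SCR and ADARkd labelled HepG2 these markers moved apart, and their median went from 6.34 to 5.02. COL3A1 went from 7.35 to 4.93, FN1 from 7.78 to 5.98 and FAP from 6.19 to 4.53. DCN went from 8.34 to 8.98 and LUM from 9.24 to 10.02. COL3A1, FAP and COL1A1 (6.23 in SCR and 5.11 in ADARkd) lay under the filter level of 5.31 in ADARkd. Their means reached it through the SCR array alone, which limits the sizes of these falls. Of 9 erythroid markers measured all were kept in K562 and 1 on the arrays labelled HepG2 (summed intensity 6149 and 5607 against 1314 and 1673). The marker kept on the latter was TFRC, at 10.22 and 10.6, beside 10.97 and 10.7 in K562. None of 11 lymphocyte markers was kept in either line. The part of these markers in the differences between the lines, or between the arms labelled HepG2, was not tested. These arrays are therefore called labelled HepG2. The filter level is the median of all genes' means in a line (5.31 on the arrays labelled HepG2, 5.28 in K562); it kept 7116 genes per line and all 10 processing genes in both.

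On the arrays labelled HepG2 the differences of the processing genes, ADARkd minus SCR, ran from -0.55 for TUT4 to 0.42 for DROSHA, and in K562 from -0.28 for XPO5 to 0.08 for DGCR8. As deposited, none of the 10 was at least 1.5-fold apart in either line, and after quantile normalization or loess 1 was, TUT4 on the arrays labelled HepG2 (-0.61 in each). Over all kept genes that share was 18.1% on the arrays labelled HepG2 (12.4% higher and 5.73% lower in ADARkd) and 1.03% in K562 (0.267% higher and 0.759% lower). A count of 0 among 10 genes is near the K562 share, and 10 genes are too few to set it apart from the other. After quantile normalization the shares labelled HepG2 were 8.52% higher and 7.52% lower, and after loess 8.9% and 7.6%. The median difference of the 10 was 0.06 on the arrays labelled HepG2, against 0.11 over all kept genes, and -0.08 against -0.07 in K562. Their median size without sign was 0.09 and 0.10, against 0.27 and 0.13 over all kept genes. Quantile normalization and loess each bring the median of all genes on the arrays labelled HepG2 from 0.11 to 0.01, and the median of the 10 to -0.06. Under one or both, 5 of the 10 differences there turned sign (DICER1, PRKRA, AGO1, AGO2 and AGO3), and 1 did in K562 (TARBP2), so no direction is given for these.

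**Figure D1:**
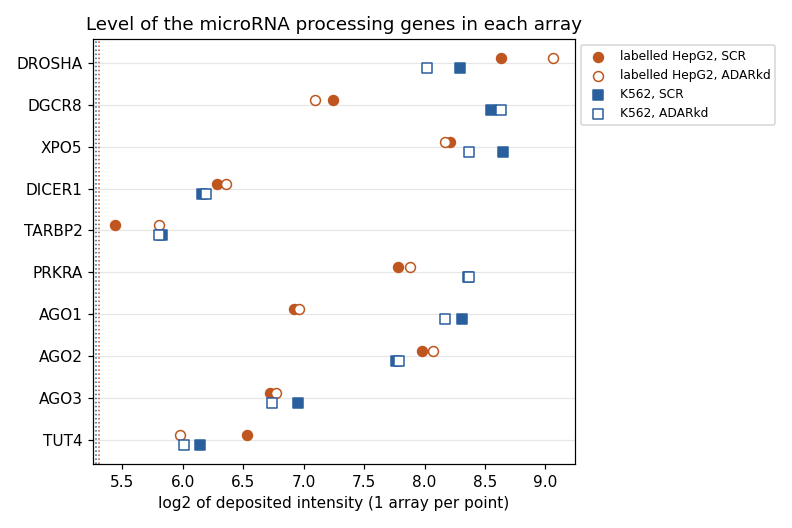
The log2 of the deposited intensity of each processing gene in each of the 4 arrays, with circles for the arrays labelled HepG2, squares for K562, filled for SCR and open for ADARkd; dotted lines mark the filter levels of 5.31 and 5.28. DGCR8 and AGO1 show the widest gap between the lines, and positions of different genes on the axis are not comparable because their probes differ.

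DROSHA, the RNase that makes the first cut, had intensities of 398 in SCR and 532 in ADARkd on the arrays labelled HepG2, and of 312 and 260 in K562. On the log2 scale these were 8.63, 9.06, 8.29 and 8.02. Both arrays labelled HepG2 lay above both K562 arrays. Within the lines the difference pointed in opposite ways, 0.42 on the arrays labelled HepG2 (1.34-fold higher in ADARkd) and -0.27 in K562 (83.2% of SCR). It was number 1514 from the highest of 7116 kept genes in the former and number 985 from the lowest in the latter, so neither value was extreme among genes. Both signs held after quantile normalization (0.29 and -0.18) and loess (0.26 and -0.19). Whether the lines differ in this response was not tested, since 4 arrays leave no residual degrees of freedom for it.

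DGCR8, which recognises the primary transcript and holds DROSHA on it, stood at 7.24 and 7.09 in SCR and ADARkd labelled HepG2, and at 8.55 and 8.63 in K562. The K562 arrays were both higher, and the knockdown differences of -0.15 and 0.08 were small beside that gap. Between the lines DGCR8 was higher in K562 by 1.42 ± 0.21 (SE, 2 arrays per line), or 2.68-fold, with a limma adjusted p of 0.00149. DROSHA went the other way, at -0.69 ± 0.23 (adjusted p = 0.0486 by limma), or 1.62-fold lower in K562, which is past the p threshold of 0.05 and short of the 2-fold bound set for a call. Over 8 alternative fits of all 4 arrays that p ran from 0.0141 to 0.0564 and was under 0.05 in 4. The gap in DROSHA was -0.35 between the SCR arrays and -1.04 between the ADARkd arrays, while that in DGCR8 was 1.30 and 1.54. DROSHA was thus not called between the lines, and DGCR8 was.

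The promoter windows of both subunits and of AGO1 and AGO3 are shown because DROSHA, DGCR8 and AGO1 are the processing genes with an adjusted p under 0.05 between the lines, and AGO3 is the direct neighbour of AGO1. Each holds the 250 bases before the gene's start, 5′ to 3′ on the gene's strand, from RefSeq on GRCh38.p14; the capitals mark CCAAT, the core of the box bound by the factor NF-Y, on either strand (ATTGG on the other).
DROSHA (chr5:31532094-31532343, minus strand): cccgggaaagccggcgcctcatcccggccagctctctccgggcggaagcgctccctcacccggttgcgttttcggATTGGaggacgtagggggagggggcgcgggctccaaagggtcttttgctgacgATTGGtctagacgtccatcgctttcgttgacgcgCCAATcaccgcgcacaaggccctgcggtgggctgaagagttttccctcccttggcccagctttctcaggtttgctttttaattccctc
DGCR8 (chr22:20079991-20080240, plus strand): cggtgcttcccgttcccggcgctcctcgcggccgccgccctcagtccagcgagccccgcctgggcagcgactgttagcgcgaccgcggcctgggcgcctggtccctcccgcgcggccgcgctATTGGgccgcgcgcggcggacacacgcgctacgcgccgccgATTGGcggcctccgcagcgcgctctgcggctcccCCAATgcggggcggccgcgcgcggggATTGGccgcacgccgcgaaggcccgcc
AGO1 (chr1:35882959-35883208, plus strand): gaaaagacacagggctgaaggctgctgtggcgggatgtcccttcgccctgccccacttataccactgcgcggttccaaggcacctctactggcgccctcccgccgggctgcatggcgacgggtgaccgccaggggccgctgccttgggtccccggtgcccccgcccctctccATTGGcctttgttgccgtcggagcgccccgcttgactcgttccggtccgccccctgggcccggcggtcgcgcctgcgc
AGO3 (chr1:35930855-35931104, plus strand): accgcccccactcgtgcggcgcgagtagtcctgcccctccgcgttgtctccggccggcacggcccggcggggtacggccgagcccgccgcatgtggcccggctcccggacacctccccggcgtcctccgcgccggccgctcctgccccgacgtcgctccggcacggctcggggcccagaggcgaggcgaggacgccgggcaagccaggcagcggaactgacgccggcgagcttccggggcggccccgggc
CCAAT occurred 3 times before DROSHA, 4 times before DGCR8, once before AGO1 and not at all before AGO3. TARBP2, whose adjusted p between the lines was not under 0.05, also had 3 copies in 1 of its windows. A high count was thus not particular to the genes shown. At least 1 copy was present in 32.0% of all 35116 promoter windows of this length, and 3 or more in 2.93%. Of the 10 genes, 8 had at least 1 window in the table, 16 windows in all, of which 8 held CCAAT. The GC box, GGGCGG, was in 12 of the 16 (42.6% of all windows). The windows of DROSHA, DGCR8, AGO1 and AGO3 held 62.0%, 80.0%, 71.6% and 80.0% G and C, against a median of 58.0% over all windows. Those of DICER1 ran from 34.0% to 74.0%. None of these shares was matched for G and C content. Windows of 1 gene can overlap, so these are not independent. AGATAA, the core bound by GATA factors, appeared in 2 of the 16, both of DICER1 (9.17% of all windows), and TGCGCA, the core bound by NRF1, in 1, that of XPO5 (6.89%). The 4 motifs were searched on both strands and counted separately, with no check of overlap between matches of different motifs. A match is a description of letters and shows no binding.

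XPO5, the RAN-dependent exporter of precursor hairpins, stood at 8.21 and 8.17 in SCR and ADARkd labelled HepG2 and at 8.65 and 8.37 in K562. Its K562 difference of -0.28 was the lowest of the 10 there, at 82.2% of SCR and number 841 from the lowest of 7116. The sign was negative in both lines and after both normalizations (-0.17 and -0.20 labelled HepG2, -0.19 and -0.21 in K562). The K562 arrays were higher than the others by 0.32 ± 0.20, with an adjusted p of 0.239 by limma and a 95% interval from -0.15 to 0.79.

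DICER1, which makes the second cut, had the smallest range over the 4 arrays among the 10 genes. Its intensities were 78.0 and 82.1 in SCR and ADARkd labelled HepG2, and 71.6 and 73.0 in K562. The knockdown differences were 0.07 and 0.03. Between the lines the difference was -0.15 ± 0.19 (limma adjusted p = 0.568), with a 95% interval from -0.60 to 0.31. A change of 2-fold in either direction lies outside that interval, which rests on 1 residual degree of freedom and is approximate.

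TARBP2 and PRKRA are paralogous double-stranded RNA-binding proteins that sit on DICER1, and PRKRA is also known as an activator of the kinase PKR. TARBP2 was at 5.44 in SCR labelled HepG2 and between 5.80 and 5.83 in the other 3 arrays. Its 1 low array gave a difference of 0.36 on the arrays labelled HepG2, where it stood just above the filter level, and of -0.03 in K562. The former was 0.34 after either quantile normalization or loess. PRKRA stood at 7.78 and 7.88 labelled HepG2 and at 8.36 and 8.37 in K562. It was higher in K562 by 0.53 ± 0.20 (adjusted p = 0.0678 by limma), and its adjusted p was under 0.05 in 2 of 8 alternative limma fits of all 4 arrays. TARBP2 differed between the lines by 0.20 ± 0.21 (limma adjusted p = 0.474).

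**Figure D2:**
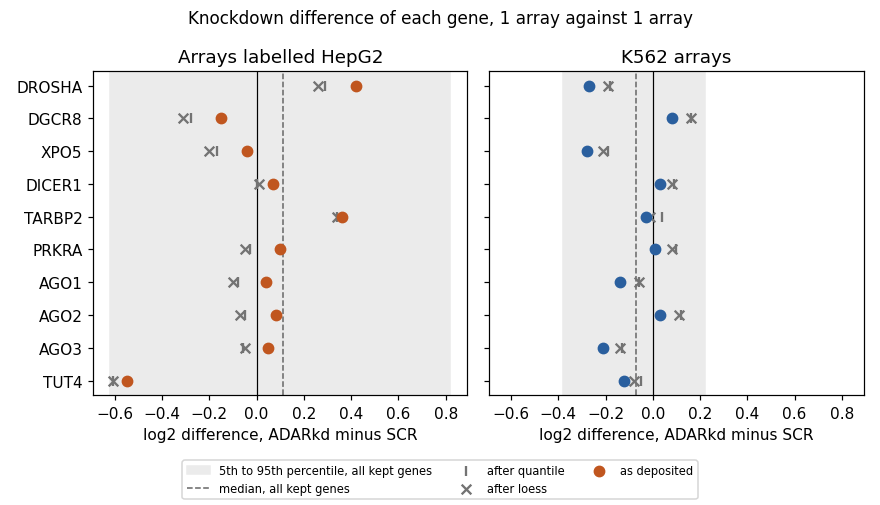
The log2 difference ADARkd minus SCR of each processing gene, 1 array against 1 array, on the arrays labelled HepG2 (orange points) and in K562 (blue points), with the values after quantile normalization (bars) and loess (crosses). The grey band runs from the 5th to the 95th percentile of all kept genes, -0.62 to 0.82 on the left and -0.38 to 0.22 on the right, and all 10 genes lie inside it in both panels.

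The Argonautes hold the guide strand, and AGO2 is the one best known for cutting its target. AGO1 stood at 6.92 and 6.96 in SCR and ADARkd labelled HepG2 and at 8.31 and 8.17 in K562. It was higher in K562 by 1.30 ± 0.20 (SE, 2 arrays per line), or 2.46-fold, with a limma adjusted p of 0.00226. The gap was 1.39 between the SCR arrays and 1.21 between the ADARkd arrays. AGO2 stood at 7.98 and 8.07 labelled HepG2 and at 7.76 and 7.79 in K562, with a line difference of -0.25 ± 0.20 (limma adjusted p = 0.354). AGO3 stood at 6.72 and 6.77 labelled HepG2 and at 6.95 and 6.74 in K562, where its ranges overlap, with a line difference of 0.10 ± 0.20 (limma adjusted p = 0.724).

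AGO4, AGO1 and AGO3 follow each other on chromosome 1, with no other protein-coding gene between them in the RefSeq order. AGO4 was read from a pathway list and lay under the filter in both lines, at 5.21 and 4.40 labelled HepG2 and at 4.76 and 4.67 in K562. Its line difference was -0.09, beside 1.30 for AGO1 and 0.10 for AGO3. AGO1 had the widest gap of the 3 neighbours, and whether it differs from the others was not tested. The Argonautes are close paralogs, and whether their probes bind each other's transcripts was not tested. In the knockdown comparison AGO1, AGO2 and AGO3 differed by 0.04, 0.08 and 0.05 labelled HepG2 and by -0.14, 0.03 and -0.21 in K562.

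TUT4 adds uridines to the ends of precursor hairpins. It is known above all for tailing let-7 precursors when a LIN28 protein brings it to them, which blocks their cutting by DICER1. Its intensity was 92.6 in SCR and 63.2 in ADARkd on the arrays labelled HepG2, and 70.4 and 64.6 in K562. On the log2 scale these were 6.53, 5.98, 6.14 and 6.01, so the SCR array labelled HepG2 stood above the other 3. The difference of -0.55 there left 68.2% of SCR, the lowest of the 10 genes and number 459 from the lowest of 7116. It fell short of 1.5-fold as deposited and passed that bound after quantile normalization and after loess (-0.61 in each). In K562 it was -0.12, number 2725 from the lowest. Between the lines TUT4 differed by -0.18 ± 0.21 (limma adjusted p = 0.512), with -0.40 between the SCR arrays and 0.03 between the ADARkd arrays.

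LIN28B, one of the LIN28 proteins, stood at 7.28 and 6.99 in K562 and at 2.92 and 2.70 on the arrays labelled HepG2. Whether it works with TUT4 in these cells was not tested. It passed the filter through K562 alone, and no level above background was shown on the other arrays. Neither a size nor a test of the difference is therefore given in the text. Its paralog LIN28A was under the filter in both lines. TUT7, the paralog of TUT4, stood at 5.84 and 6.02 labelled HepG2 and at 6.34 and 6.24 in K562, a line difference of 0.36 ± 0.20 (limma adjusted p = 0.186). The sequences that this branch acts on are shown for let-7a, the first member of the family, and for 4 hairpins of the family. In the mature strand the capitals mark the seed, bases 2 to 8, and in the hairpins GGAG between the arms, the letters that LIN28 proteins are known to bind. They come from RefSeq on GRCh38.p14, 5′ to 3′.
hsa-let-7a-5p: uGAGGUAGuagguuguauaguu
let-7a-1 hairpin (chr9:94175957-94176036, plus strand): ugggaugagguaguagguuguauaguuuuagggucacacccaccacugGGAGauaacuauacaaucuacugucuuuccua
let-7g hairpin (chr3:52268278-52268361, minus strand): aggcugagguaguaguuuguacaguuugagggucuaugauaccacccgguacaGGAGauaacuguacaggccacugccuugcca
let-7a-3 hairpin (chr22:46112749-46112822, plus strand): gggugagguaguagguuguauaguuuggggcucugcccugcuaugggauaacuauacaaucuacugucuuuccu
let-7b hairpin (chr22:46113686-46113768, plus strand): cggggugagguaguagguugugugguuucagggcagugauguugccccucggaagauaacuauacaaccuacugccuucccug
All 9 mature strands from the 5′ arm of the family share this seed. Of its 12 hairpins 9 hold GGAG between the arms, as let-7a-1 and let-7g do, and 3 do not, among them let-7a-3 and let-7b. For 1 hairpin, let-7f-2, the table holds no mature strand of the 3′ arm, and the search there ran to the end of the hairpin. GGAG is a short word, found somewhere in 43.4% of all 1562 human hairpins in the table. No level of a let-7 microRNA was measured on these arrays.

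Fitted over both lines together, no processing gene passed for a shared knockdown effect. By limma with Benjamini-Hochberg adjustment over 6204 genes kept in both lines, 0 of the 10 passed at 0.05, nor did any gene (0%), and 0 of the 10 had an unadjusted p under 0.05, as 179 genes did (2.89%). TUT4 came nearest with -0.34 ± 0.20 (SE, 2 arrays per arm; 95% interval -0.80 to 0.13; unadjusted p = 0.133 in the limma fit, adjusted p = 1.0). ADAR, the target, reached -1.45 ± 0.22 with an unadjusted p of 0.00014 and an adjusted p of 0.871 by limma. The fit has 1 residual degree of freedom, and a count of 0 does not show that these genes did not change.

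In the comparison of K562 with the arrays labelled HepG2, DGCR8 and AGO1, 2 of the 10, met both bounds set for a call, adjusted p below 0.05 and 2-fold or more, and both were higher in K562. All 10 are kept in both lines, and of 6204 genes kept in both 14.1% passed, 5.85% higher in K562 and 8.25% lower; 2 of 10 is too few to set apart from that. At any fold size 3 of 10 had an adjusted p under 0.05, against 31.8%. The arrays of the lines did not overlap for 8 of the 10, against 71.6%: DGCR8, XPO5, TARBP2, PRKRA and AGO1 were higher in both K562 arrays (37.9% of genes kept in both were), and DROSHA, DICER1 and AGO2 were lower in both (33.7%). The p-values were adjusted over 8028 genes kept in either line, of which 1824 entered through 1 line. Over all 8028 the shares were 25.1% called (10.3% higher, 14.7% lower), 42% at any fold size and 76.8% not overlapping (39.9% higher, 37% lower). For TARBP2 that separation is 55.8 against 55.7 in intensity. The median line difference of the 10 was 0.15, against 0.05 over all genes. Each line is represented by an SCR and an ADARkd array, which the labels do not describe as separate cultures. The p-values thus measure only the spread between these samples, which may be technical. In this fit the spread is the difference between the knockdown differences of the 2 lines. It therefore also holds any knockdown response that differs between them. By limma the spread of each gene is drawn toward that of the other genes, so the SEs are much alike. As the fit rests on 1 residual degree of freedom, the p-values are approximate.

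**Figure D3:**
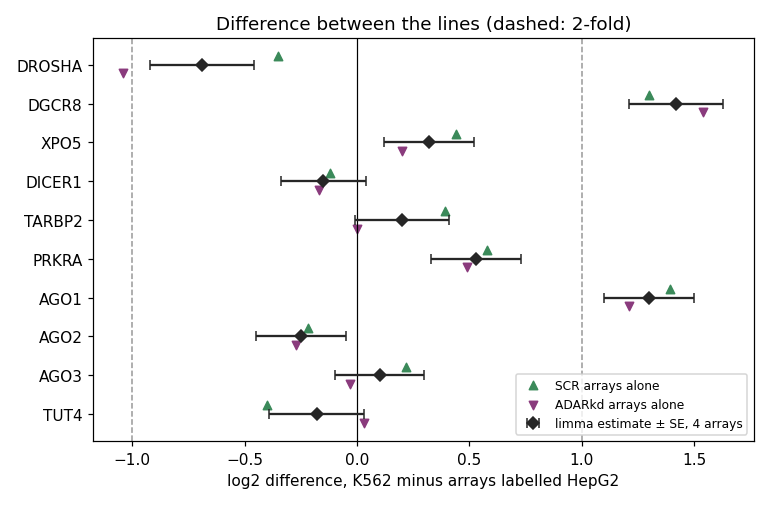
The difference between the lines, K562 minus the arrays labelled HepG2, in log2 units for each processing gene; diamonds with bars are the limma estimate ± SE over 4 arrays, and triangles are the SCR and the ADARkd arrays taken alone. DGCR8 and AGO1 lie beyond the dashed 2-fold line in both arms, and DROSHA lies past it, on the lower side, in the ADARkd arrays alone.

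The rest of the pathway was read from 7 lists with 145 genes, of which 96 had a transcript cluster with a single symbol. Most of the others (41 genes) lie in clusters annotated to several genes and were left out. On the arrays labelled HepG2, 10 of 78 kept list genes were at least 1.5-fold higher in ADARkd and 2 lower, shares to be read against 12.4% and 5.73% of all genes. In K562 none of 78 was 1.5-fold apart, against 1.03% of all genes. The median difference of the list genes was 0.13 and -0.07, beside 0.11 and -0.07 over all genes. On the arrays labelled HepG2 it became 0.01 after quantile normalization and -0.01 after loess.

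Among cofactors of the Microprocessor, 2 of 11 were at least 1.5-fold higher on the arrays labelled HepG2 and none lower. They were SRRT, the ARS2 protein that links capped transcripts to processing, at 0.69, and the splicing factor SRSF3, known to bind primary transcripts, at 0.62. After quantile normalization these were 0.58 and 0.48 and after loess 0.56 and 0.45, so that 0 of 11 passed the bound under either. Of the export list, RAN, the GTPase that XPO5 carries, differed by 0.43 and none of 5 passed the bound. Over all kept genes labelled HepG2, 12.4% were higher and 5.73% lower as deposited. The shares were 8.52% and 7.52% after quantile normalization, and 8.9% and 7.6% after loess. In the tailing and turnover list 5 of 17 were higher and none lower, and 4 after quantile normalization or loess, without METTL3. Several lists were read, each with few genes, and neither the cofactors nor this list was tested against those shares. ZC3H12A, an RNase also known to cut precursor loops, had the largest difference, 0.94. It stood at 5.18 in SCR, under the filter level of 5.31, and at 6.12 in ADARkd. Its mean thus passed the filter through the ADARkd array, where it was high, and its size rests on a dim value. The mitochondrial polynucleotide phosphorylase PNPT1 followed with 0.76 and the polymerase TENT4B with 0.73. ERI1, an exonuclease that trims small RNA ends, was at 0.69 and the methyltransferase METTL3 at 0.61. After quantile normalization ZC3H12A was at 0.89, PNPT1 at 0.61, TENT4B at 0.63, ERI1 at 0.60 and METTL3 at 0.48.

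Of 15 partners of the Argonautes, 3 were at least 1.5-fold higher on the arrays labelled HepG2 and 1 lower, beside 12.4% and 5.73% of all genes. After quantile normalization 3 were still higher, AJUBA at 0.86 and DHX9 and HSP90AA1 at 0.60 each, beside 8.52% of all genes. After loess 1 was higher, AJUBA at 0.91, with DHX9 at 0.56 and HSP90AA1 at 0.47, beside 8.9% of all genes. AJUBA, a LIM protein that binds Argonautes, stood at 7.92 and 8.92, the helicase DHX9 at 8.32 and 9.04, and the chaperone HSP90AA1, which keeps Argonautes open for loading, at 11.46 and 12.05. The helicase MOV10 was lower, at 7.28 in SCR and 6.53 in ADARkd (-0.76). The GW proteins TNRC6A and TNRC6B, which tie Argonautes to the deadenylases, differed by 0.23 and -0.35. Of 20 genes of deadenylation, decapping and P-bodies, 1 was past the bound: PAN2, the catalytic subunit of a deadenylase, at 6.55 and 5.46 (-1.09). Its cofactor PAN3 was at -0.17.

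In K562 the median size of the difference without sign was 0.11 over the lists and 0.13 over all genes, against 0.23 and 0.27 on the arrays labelled HepG2. The deadenylase CNOT6L had the largest difference of the list genes in K562, 0.52 (6.17 in SCR and 6.69 in ADARkd). It was at -0.41 on the arrays labelled HepG2, where its ADARkd value of 5.14 lay under the filter level. GEMIN4, a partner of the Argonautes, stood at 6.53 and 6.88 in K562, and ERI1 at 6.14 and 5.79. SMAD5, a signal transducer known to bind the Microprocessor, was at -0.31 there and at -0.04 on the arrays labelled HepG2.

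**Figure D4:**
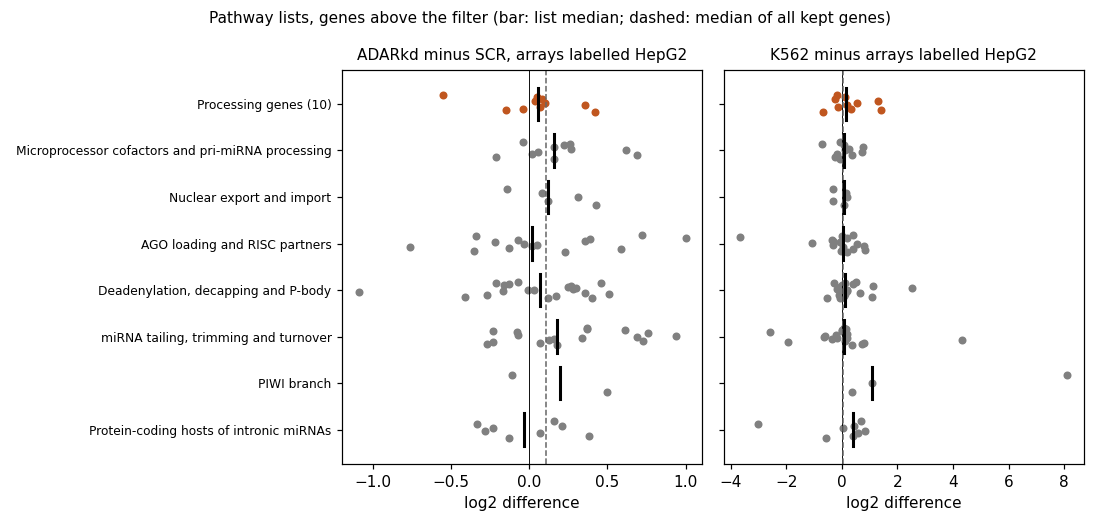
The log2 differences of the 10 processing genes (orange) and of the kept genes of 7 pathway lists (grey), for ADARkd minus SCR on the arrays labelled HepG2 (left) and for K562 minus the arrays labelled HepG2 (right, with genes kept in either line). Black bars are list medians and the dashed line is the median of all kept genes (0.11 left, 0.05 right). The processing genes span -0.55 to 0.42 on the left, with a median of 0.06. The right panel and its medians include genes that passed the filter in 1 line alone, which favours a large difference.

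Between the lines, 4 of 74 list genes kept in both were called higher in K562 and 2 lower, against 5.85% and 8.25% of all genes kept in both. Of the decapping genes DCP2, the decapping enzyme, was higher in K562 by 2.54 ± 0.23 (limma adjusted p = 0.000161). EDC4, its scaffold, was higher by 1.14 and the deadenylase CNOT6L by 1.08. On the arrays labelled HepG2 DCP2 stood at 5.23 in SCR and 5.53 in ADARkd, and CNOT6L at 5.55 and 5.14. Each thus had an array under the filter level of 5.31, which limits both sizes. PLD6, a factor of the PIWI branch, the germline counterpart of the pathway, was higher by 1.09. FMR1, the fragile X protein gene, was lower in K562 at -1.06, and the polymerase TENT4A at -1.94. In K562 FMR1 stood at 5.36 and 5.41, just above the filter level of 5.28, which limits its size. A further 8 list genes passed the filter in 1 line alone, which favours a large difference, so the text gives only levels for those. AJUBA stood at 7.92 and 8.92 labelled HepG2 and under the filter in K562, at 4.75 and 4.76. HENMT1, which methylates the ends of small RNAs, stood at 6.17 and 5.95 labelled HepG2 and at 3.34 and 3.60 in K562. GTSF1, another factor of the PIWI branch, stood at 10.81 and 10.82 in K562 and at 2.67 and 2.74 labelled HepG2. PIWIL1, PIWIL2, PIWIL3 and PIWIL4 were under the filter in both lines. Of 37 hosts of intronic microRNAs, 25 lie only in clusters shared with another gene and 10 were read alone; LPP, among 8 kept in either line, stood at 7.32 and 6.99 labelled HepG2 and under the filter in K562, at 4.12 and 4.20.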

How the data were processed

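Total RNA of 4 samples was labelled with biotin for Affymetrix whole-transcript arrays, per the labels' protocols. Per the submitters' processing notes RMA and hg18 were used, without versions; the authors' deposited values are linear intensity values, 1 per transcript cluster and array, and later steps are not given in the sources used here. Values were turned into log2 without an offset. Of 17881 clusters, 14432 had 1 symbol, 2408 several and 1041 none; only the first were used, the brightest per gene (14232 genes). Signal over background was not analysed here. Coordinates are given only for RefSeq sequences.

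Within a line the result is a log2 difference of 1 array against 1 array, with no test and a 1.5-fold bound. The shared effect and K562 minus HepG2 come from 1 limma 3.58.1 fit in R 4.3.3 with line and arm as terms (lmFit, eBayes with trend, two-sided, Benjamini-Hochberg over all genes kept). The fit was tested on simulated data, where false calls exceeded the nominal share, so adjusted p-values are approximate. Alternatives were quantile normalization, loess, log2(value + 16), the mean of clusters, no filter or the 75th percentile, the prior, and single arrays left out. Genes named are all 10 processing genes, ADAR, and up to 3 of each list with the largest difference. Beyond this rule, METTL3, ERI1, HSP90AA1, TNRC6A, TNRC6B, PAN3, COL1A1, COL3A1, FN1, FAP, DCN, LUM, AGO4, LIN28A, TUT7, the PIWIL genes, CPS1, FOXA1, ALB and TFRC were chosen after their values were seen. The processing genes and lists were chosen with earlier results of these data known. Shares over genes kept in both lines and list counts after normalization were added after seeing the data. Figures used matplotlib 3.10.9.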

Additional observations from a re-analysis of the deposited data

Results flagged for a closer look

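DROSHA was 0.42 higher in ADARkd than in SCR on the arrays labelled HepG2 and at -0.27 in K562, opposite signs that also held after quantile normalization and loess. DGCR8, its partner, had the reverse pair of signs, -0.15 on the arrays labelled HepG2 and 0.08 in K562. As deposited, only 5 of the 10 processing genes had the same sign in both lines, so opposite signs are not particular to this pair. The medians over all kept genes also differed in sign, 0.11 on the arrays labelled HepG2 and -0.07 in K562. With 1 array per group the difference between the lines was not tested for either gene, and the cause was not tested.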

How the results depend on the processing

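The number of processing genes at least 1.5-fold apart on the arrays labelled HepG2 was 0 as deposited and 1 (TUT4) after quantile normalization and after loess. It stayed at 0 in K562, and at 0 for the shared effect, under every alternative run. DGCR8 and AGO1 passed the line comparison in all 8 alternative fits of the 4 arrays (adjusted p by limma 0.000769 to 0.00241 and 0.00107 to 0.00341). Leaving out an array puts 1 array in a line, assumed to vary like the other line, whose SCR and ADARkd pair alone gives the spread. Without an array labelled HepG2 the adjusted p of DGCR8 was 2.91e-06 or 6.72e-06, and without a K562 array 0.0248 or 0.0298; for AGO1 it was at most 1.68e-05 and 0.0417, for DROSHA 0.000307 or 0.016 and 0.136 or 0.275, and for PRKRA 0.00302 or 0.0099 and 0.239 or 0.251. Line differences that were not called reversed for TUT4, to 0.09 without the SCR array labelled HepG2 (-0.46 to 0.09 with each array left out in turn), and for AGO3, to -0.01 without the SCR array of K562 (-0.01 to 0.2). Alternatives for the lists were chosen after seeing the data. The 12 list genes 1.5-fold apart on the arrays labelled HepG2 became 7 after loess and also 7 when the filter was set at the 75th percentile, and the 0 in K562 became 1 after quantile normalization. The 11 list genes called between the lines over genes kept in either line became 7 with the stricter filter, and 7 to 13 with 1 array left out (7 without the ADARkd array of K562). As deposited, those 11 were among 82 list genes, beside 25.1% of all 8028 genes called. Of the 11, 2 called higher in K562 and 3 called lower passed the filter in 1 line alone. Among all genes that did so 62.4% were called, so the text above gives only levels for these list genes. Leaving out an array was fitted with line as the only term. With the filter at the 75th percentile DICER1, TARBP2, AGO3 and TUT4 had no value. The cause was not tested for any of these. The shared effect already compares the arms within each line, with line as a term. No paired analysis was possible beyond that, because the labels give no replicate numbers. Dim values have no measured background here, which limits every size that rests on a level under the filter.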
